A study of Mus musculus with 4 samples.

Results

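The 8 protein-coding genes described here lie on mouse chromosome 1: Chil1, Npl, Ctse, Ppfia4, Fcrla, Rgs16, Itln1 and Kcnj10, out of 32285 genes in the deposited matrices. They were chosen by level and position: each lay within 40 Mb of the start site of Ptprc, stood outside the Ifi200 gene family, and differed over 4-fold in UMIs per 1000000 (CPM) between a WT and a VISTA KO library of CD11b+ cells sorted from tumors. A UMI is a molecular barcode that marks 1 captured RNA molecule. The same contrast chose the genes, so their ratios between libraries are given as descriptions. All 8 had at least 100 UMIs over both libraries, and 4 were higher and 4 lower in the VISTA KO library.

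The series asked how VISTA, an inhibitory immune receptor encoded by Vsir, acts in myeloid-derived suppressor cells, immature myeloid cells that restrain T cells in tumors. The WT group came from chimeric mice rebuilt with WT bone marrow and the VISTA KO group from mice rebuilt with VISTA KO marrow, both on the C57/BL6 strain per the labels. Both received MC38, a transplanted colon carcinoma line, after 6 weeks, and tumors 9 to 10 mm wide were pooled, so a library stands for a pool of animals. CD45.1 and CD45.2 staining told WT from VISTA KO cells, and viable CD11b+ cells were sorted and stained with tagged antibodies to Ly6C, Ly6G and CD11c. The labels give the number loaded in a form that may mean 10000, which would be below the barcodes kept here from either library. The labels do not state the ages of the animals, the number pooled or the CD45 allele of each group. The CD11b+ sort held RNA of many cell types. Summed over 12 markers each, none of them at 0, monocyte markers reached 12344 CPM in the WT library and 11114 in the other, macrophage markers at 9141 and 12520, and neutrophil markers at 5006 and 1300. There was 1 library per group, so no test was possible and each 95% interval covers counting error only. The WT library held 10193 kept cells with a median of 4692 UMIs and the VISTA KO library 15140 with a median of 4212.5, and 47 barcode sequences occurred in both. Vsir RNA was at 136.5 CPM (WT) and 46.2 CPM (VISTA KO), a log2 ratio of -1.56, and since the deleted part of the gene is not stated, this 3′ RNA is no check of the genotype.

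Ptprc encodes CD45, the receptor-type tyrosine phosphatase found on all leukocytes, and CD45.1 and CD45.2 are its alleles. A marked allele bred into another strain brings along the chromosome around it, so cells told apart by CD45 can also differ at neighbouring genes. In this design the Vsir genotype and any difference in Ptprc allele changed together between the libraries and cannot be told apart. Chil1 encodes a secreted lectin of the chitinase family that binds sugars without cutting chitin, Npl an enzyme that splits sialic acid, and Ctse the aspartic protease cathepsin E. Ppfia4 encodes a liprin, a scaffold of LAR-type receptor phosphatases, and Fcrla an intracellular relative of Fc receptors best known in B cells. Rgs16 encodes a brake on G protein and chemokine receptor signals, Itln1 an intelectin that binds microbial glycans, and Kcnj10 an inward rectifier potassium channel best known in glia.

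The 250 bases before the start site are shown for 4 of the genes, Chil1 and Ppfia4 because they lie close together and differed in opposite directions, and Npl and Fcrla because each was clearly higher in 1 library. They are from RefSeq GRCm38.p6, the assembly behind the mm10 build of the files, which held such a window for 7 of the 8 genes. Capitals mark the matches to the motifs searched. The Chil1 window lies at chr1:134181906-134182155 on the plus strand. That of Ppfia4 lies at chr1:134344717-134344966, Npl at chr1:153549715-153549964 and Fcrla at chr1:170927584-170927833, all on the minus strand. RefSeq listed 2 starts for Ppfia4, of which the first is shown, and the listed Fcrla start lies inside the annotated span of the gene.
Chil1: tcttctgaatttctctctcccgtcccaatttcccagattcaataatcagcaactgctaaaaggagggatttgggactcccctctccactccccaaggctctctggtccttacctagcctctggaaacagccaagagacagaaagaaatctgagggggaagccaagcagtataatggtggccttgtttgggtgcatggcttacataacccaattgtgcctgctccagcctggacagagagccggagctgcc
Ppfia4: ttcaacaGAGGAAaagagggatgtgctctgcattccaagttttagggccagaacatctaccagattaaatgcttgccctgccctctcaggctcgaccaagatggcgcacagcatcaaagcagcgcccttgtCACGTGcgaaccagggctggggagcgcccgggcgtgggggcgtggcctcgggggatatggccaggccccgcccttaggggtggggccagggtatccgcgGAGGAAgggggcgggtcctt
Npl: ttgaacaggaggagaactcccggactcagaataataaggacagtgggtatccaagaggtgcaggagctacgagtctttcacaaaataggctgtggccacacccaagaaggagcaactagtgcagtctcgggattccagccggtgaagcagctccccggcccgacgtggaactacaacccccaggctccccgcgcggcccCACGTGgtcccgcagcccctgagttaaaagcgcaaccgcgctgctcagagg
Fcrla: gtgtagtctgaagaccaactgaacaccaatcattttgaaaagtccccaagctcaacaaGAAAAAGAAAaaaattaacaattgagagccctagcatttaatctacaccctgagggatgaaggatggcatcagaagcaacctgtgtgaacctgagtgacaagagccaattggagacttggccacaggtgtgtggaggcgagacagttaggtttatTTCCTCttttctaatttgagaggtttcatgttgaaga
Both strands were searched for 8 short motifs. The ETS and PU.1-type core GAGGAA was found in 4 of the 7 windows, with 2 matches in Ppfia4 (243 and 20 bases before the start) and 1 each in Fcrla (37), Rgs16 (220) and Itln1 (60), against 22.7% of 20267 RefSeq windows of the same length. The E-box CACGTG was in Ppfia4 (119 bases before the start) and Npl (51) and in 6.59% of all windows. The interferon-stimulated response element (ISRE) was in Fcrla (192 bases before the start) and in 2.95% of all windows, and the C/EBP-type TTNNGCAA in Kcnj10 and in 9.23%. None of the 7 windows held TGANTCA, GGGANTTCC, TTCNNNGAA or TATAAA, which 6.58%, 1.54%, 6.94% and 12.2% of all windows held. The Chil1 window held none of the 8. A match is a string of letters and shows no binding.

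Over all kept cells, 4 genes were far lower in the VISTA KO library. Chil1 (ENSMUSG00000064246, chromosome 1, 134182156 to 134190031) reached 118.6 CPM among WT cells (115.9 to 121.3; 7318 UMIs) and 1.33 among VISTA KO cells (107 UMIs), a log2 ratio of -6.46 (-6.76 to -6.20), or 88.2-fold. Npl (ENSMUSG00000042684, 153503016 to 153549714) stood at 28.6 and 1.38 CPM from 1762 and 111 UMIs, a log2 ratio of -4.36 (-4.66 to -4.09). Ctse (ENSMUSG00000004552, 131638314 to 131675507) stood at 36.9 and 2.11 CPM from 2277 and 169 UMIs, a log2 ratio of -4.12 (-4.37 to -3.91). Over all kept cells Chil1 was thus the most unequal of the 8. With both libraries weighted to the same cell class shares it was 33.4-fold apart, beside 57.6-fold for Ppfia4 and 46.0-fold for Itln1. These weighted values have no interval and no UMI added. That of Chil1 takes in VISTA KO neutrophil-like cells, with 13 UMIs in 76 cells, and that of Itln1 rests on 5 WT UMIs. No order of the genes is therefore read from them. Rgs16 (ENSMUSG00000026475, 153740353 to 153745468) was the closest to the 4-fold threshold, at 3.42 and 0.772 CPM from 211 and 62 UMIs, a log2 ratio of -2.13 (-2.58 to -1.73).

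The other 4 genes were nearly absent from the WT library. Ppfia4 (ENSMUSG00000026458, 134296783 to 134344756) had 38 UMIs (0.616 CPM) in the WT library and 3094 (38.5 CPM) in the VISTA KO library, a log2 ratio of 5.93 (5.51 to 6.47). Fcrla (ENSMUSG00000038421, 170917594 to 170932216) stood at 0.745 and 25.3 CPM from 46 and 2032 UMIs, a log2 ratio of 5.06 (4.66 to 5.54). Itln1 (ENSMUSG00000038209, 171518123 to 171535325) and Kcnj10 (ENSMUSG00000044708, 172341210 to 172374085) were scarce even where they were high. Itln1 had 5 WT and 193 VISTA KO UMIs (0.0810 and 2.40 CPM), a log2 ratio of 4.64 (3.64 to 6.53). It was 5.52 with both libraries at the same class shares and no UMI added. Kcnj10 had 18 and 133 (0.292 and 1.66 CPM), a log2 ratio of 2.44 (1.79 to 3.30).

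**Figure D1:**
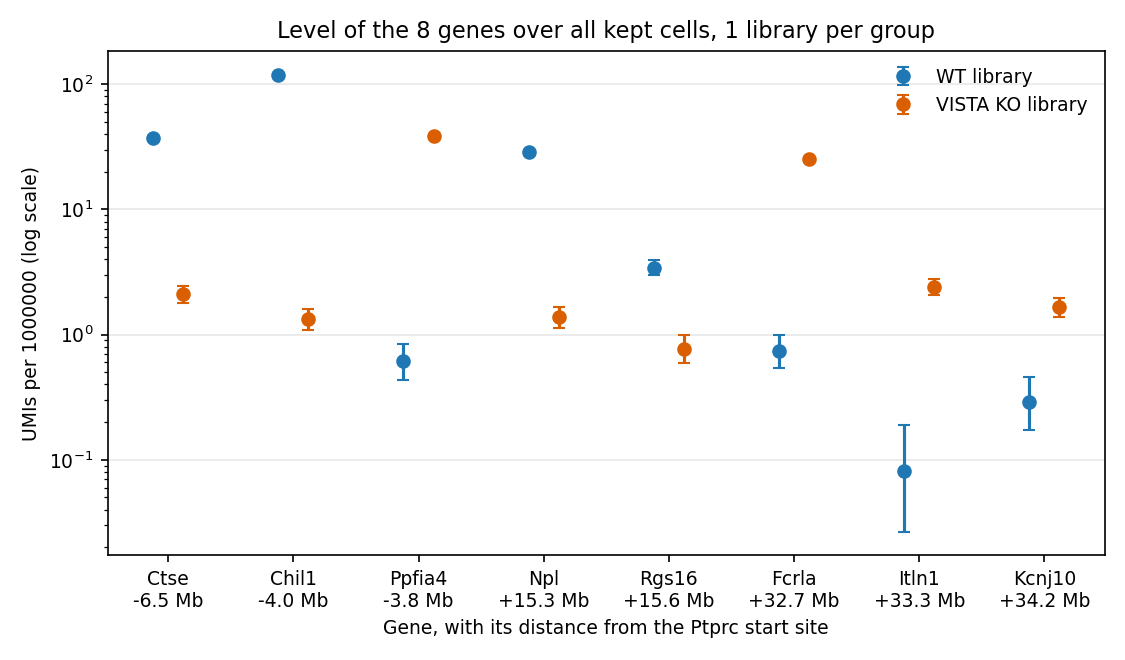
Level of each gene over all kept cells in CPM on a log axis, with exact Poisson 95% intervals, for the WT and the VISTA KO library (1 library each), in chromosome order. Ctse, Chil1, Npl and Rgs16 are higher in WT and Ppfia4, Fcrla, Itln1 and Kcnj10 in VISTA KO, from 88.2-fold apart for Chil1 to 4.38-fold for Rgs16.

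Single cells were split the same way. After each cell was thinned to 1000 UMIs, 16.4% of WT cells held UMIs of only the WT-high genes and 0.114% of only the VISTA KO-high genes, with 561 shallower cells left out. In the VISTA KO library the shares were 0.552% and 6.27%, with 1561 left out. Without thinning, 48.7% and 0.353% of WT cells and 1.66% and 23.5% of VISTA KO cells held them. UMIs of 2 or more different VISTA KO-high genes were found together in 1 WT cell and in 467 VISTA KO cells, and UMIs of 2 or more different WT-high genes in 1347 WT cells and 9 VISTA KO cells. The same UMIs chose the genes, so these shares are a description.

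The 8 genes lay in 3 stretches of chromosome 1. Ctse (6.50 Mb), Chil1 (3.99 Mb) and Ppfia4 (3.83 Mb) lay on the centromere side of the Ptprc start, Npl (15.3 Mb) and Rgs16 (15.6 Mb) on the other side, and Fcrla (32.7 Mb), Itln1 (33.3 Mb) and Kcnj10 (34.2 Mb) further out. Chil1 and Ppfia4, of the 8 the most unequal in either direction over all kept cells, were 106.752 kb apart with no gene of at least 100 UMIs between them, and differed in opposite directions. Npl and Rgs16 were 190.639 kb apart, also with no such gene between, and were both lower in VISTA KO. Between Fcrla and Itln1 lay 22 such genes and between Itln1 and Kcnj10 another 13, none of them over 4-fold apart. Ptprc itself (138062859 to 138175756) was close between the libraries, at 623.3 and 702.5 CPM, a log2 ratio of 0.17 (0.15 to 0.19).

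The nearest measured neighbours outside the 8 are given as a description, since the choice of genes left neighbours under 4-fold apart. Tmem183a, 1.34 kb from Ppfia4, stood at 28.4 and 27.3 CPM (log2 ratio -0.05). Dhx9, 15.328 kb from Npl, had a log2 ratio of 0.06. Both stood near equality. Around Fcrla, Fcrlb (3.765 kb away) and the inhibitory IgG receptor gene Fcgr2b were higher in VISTA KO by 0.53 and 0.92 on the log2 scale. Rab7b beside Ctse had a log2 ratio of 1.13 and Fam72a on its other side -0.99, and Btg2 beside Chil1 0.45. Beside Itln1, Alyref2 had -0.60 and Cd244a -0.74, and beside Kcnj10, Igsf8 had 1.03 and Pigm 0.19.

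Of 278 genes with at least 100 UMIs within 40 Mb of Ptprc, 12 were over 4-fold apart: the 8 genes, 3 of the Ifi200 family (Ifi202b, Ifi206 and Ifi213) and the noncoding Gm9530 (12.3 and 1.72 CPM). Over all 11499 genes measured, 0.791% were over 4-fold apart with an interval that left out 1, 0.235% higher and 0.557% lower in VISTA KO, against 4.32% in this window. Since the window and the fold chose the 8 genes, nothing is read from that difference. On the rest of chromosome 1 the share was 1.30%, and on the other chromosomes it ran from 0.149% to 2.14%. At a size of 1.5-fold, 55 of the 278 genes differed, 20 higher and 35 lower (19.8%), against 8.34% of genes outside the window. With the Ifi200 family left out, 47 of 265 differed (17.7%). Both counts include the 8 genes, so nothing is read from this difference either. Within 10 Mb before the Ptprc start, 3 of 61 genes were over 4-fold apart. At 10 to 20 Mb after it there were 3 of 43, and at 30 to 40 Mb 6 of 78. There were none among 14 genes at 0 to 10 Mb or 48 at 20 to 30 Mb. The bins from 40 to 10 Mb before the start held 11, 1 and 22 genes, none over 4-fold apart. The bins differ in gene number and the counts are small, so no uneven spread is read from them. Just over the threshold stood Rgs16 (4.38-fold), Kcnj10 (5.42-fold) and Gm9530 (7.11-fold). Just under it stood the junction protein gene F11r (33.4 and 9.19 CPM, 3.62-fold), Igsf9 (3.21-fold) and Dusp23 (3.13-fold). Below 100 UMIs, Shcbp1l, beyond Dhx9 from Npl and singled out after its values were seen, had 1 WT UMI and 69 VISTA KO UMIs (log2 ratio 4.75, 3.20 to 11.05).

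**Figure D2:**
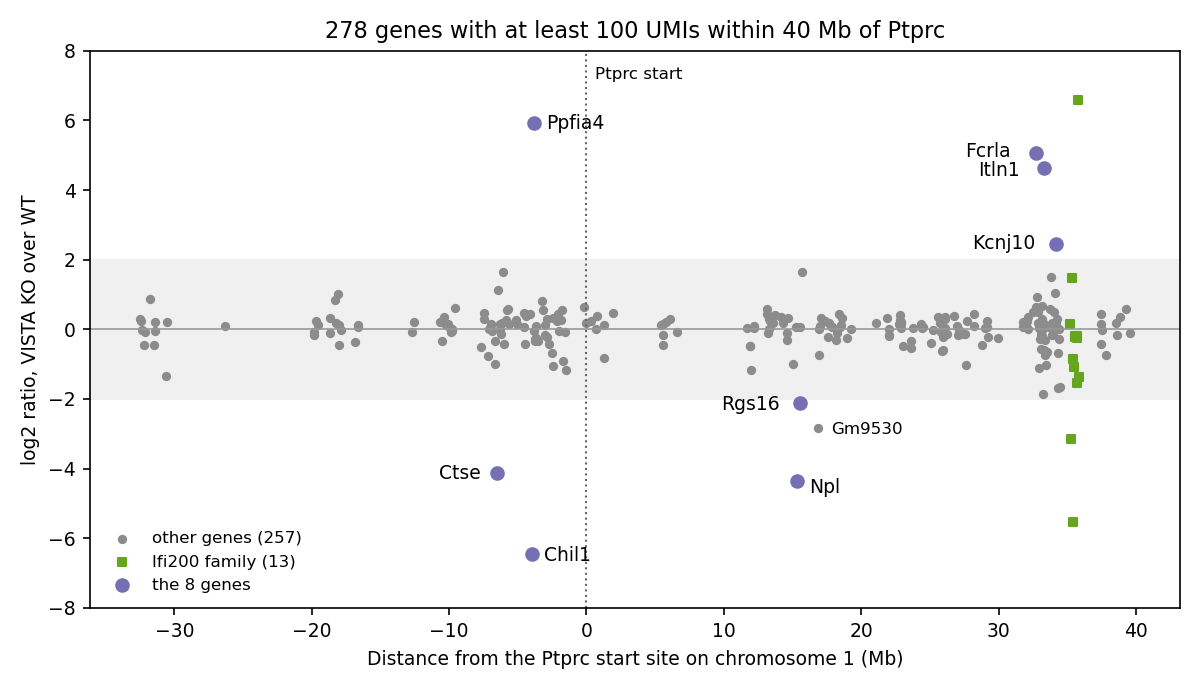
Each of 278 genes by its distance from the Ptprc start site (x axis, Mb) and its log2 ratio of VISTA KO over WT (y axis); the grey band spans 4-fold in either direction. The 8 genes lie outside the band at 3 places, with Chil1 at -6.46 and Ppfia4 at 5.93 almost at the same distance, while most other genes lie near 0.

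The cell classes that carried each gene were then compared, with cells clustered without any chromosome 1 gene within 40 Mb of Ptprc, so that the 8 genes did not define the classes. A class name ending in -like rests on RNA markers only, and an unnamed cluster is called by leading genes. Gm genes, mitochondrial genes, Xist and chromosome 1 genes within 40 Mb of Ptprc were passed over for this. Ppfia4 and Ifi202b were among the leading genes passed over in the cluster called by Gpr84 and Slc7a2. The cluster called by Malat1 and Dleu2 had 3 supporting monocyte markers, but low counts and none of them among its leading genes. Clusters with macrophage RNA beside that of another type are called mixed, and no doublet caller was run. Whether a mixed cluster holds droplets with several cells or a single cell type was not tested. Levels below are CPM within a class of the library in which the gene was high, ranked over classes with at least 50 cells. The plot of levels by cell class shows them for both libraries.

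Chil1 was found in each of the 14 ranked WT classes and was highest in a cluster led by Ly6i and Cxcl9 and in neutrophil-like cells. It stood at 376.7 CPM (345.4 to 410.2) in the former, which is unnamed and whose leading gene Cxcl9 encodes an interferon-induced chemokine, and at 314.7 (269.3 to 365.5) in the latter, with intervals that overlap. WT cells of the Ly6i and Cxcl9 cluster held 17627 CPM of monocyte markers, against 19876 in monocyte-like cells. They held 5326 CPM of macrophage and 160 of neutrophil markers. With fewer and larger clusters (Leiden resolution 0.5) the leading class was a cluster led by Gpr84 and Cxcl9, at 205.3 CPM. Then followed, in the classes used here, the cluster led by Gpr84 and Slc7a2 (150.9), monocyte-like cells (143.4) and mixed neutrophil and macrophage droplets (135.3), each of which overlapped the next. Macrophage-like cells held less (42.2 CPM, 37.4 to 47.5), and cDC2-like cells, a type of conventional dendritic cell, held the least at 20.5, 18.4-fold below the top. After thinning, 31.8% of cells of the Ly6i and Cxcl9 cluster and 21.7% of neutrophil-like cells held a Chil1 UMI, against 0.920% of cDC2-like and 0.709% of T cell-like cells. Unthinned shares were 63.4%, 26.7%, 6.38% and 7.48% at median depths of 4118.5, 1217, 5454 and 3722 UMIs. T cell-like and NK cell-like cells, which are lymphoid, held 24.8 and 42.6 CPM, and the neutrophil gene S100a8 stood at 193.7 and 530.9 CPM in them.

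In the VISTA KO library 86.9% of the remaining Chil1 RNA was in classes with neutrophil RNA. Neutrophil-like cells held 123.1 CPM (13 UMIs in 76 cells) and mixed neutrophil and macrophage droplets 8.66 (80 UMIs), together 93 of the 107 Chil1 UMIs. Monocyte-like cells held 1 UMI in 2916 cells, against 2020 UMIs in 3027 WT cells, a log2 ratio of -9.69 (-15.99 to -8.21). The Ly6i and Cxcl9 cluster held 0 UMIs in 1619 cells, at least 819-fold lower than in WT against a floor of 3 UMIs in that sum. In neutrophil-like cells the log2 ratio was only -1.26 (-2.29 to -0.54), an interval that does not meet that of monocyte-like cells. Per 100 UMIs of S100a8, the VISTA KO neutrophil-like cells held 0.378 Chil1 UMIs and the mixed droplets 0.355. In WT this value was 1.26 in neutrophil-like cells, 4.07 in mixed droplets and 223.0 in monocyte-like cells. The mixed droplets made up 19.0% of WT and 5.26% of VISTA KO cells.

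Npl was a macrophage gene in the WT library. It stood at 77.4 CPM (70.8 to 84.5) in macrophage-like cells, above every other ranked class, and next at 35.6 (33.1 to 38.3) in mixed neutrophil and macrophage droplets. Of 1762 Npl UMIs, 1250 were in these classes. Within macrophage-like cells the 2 clusters differed, at 93.5 CPM (84.8 to 102.8) in cluster 7 and 41.0 (32.6 to 50.9) in cluster 3. Cluster 7 held 638 of the 1042 WT and 972 of the 2564 VISTA KO macrophage-like cells. Monocyte-like cells held 13.7 CPM and neutrophil-like cells 1.84 from a lone UMI. After thinning, 5.01% of macrophage-like and 0.323% of NK cell-like cells held an Npl UMI (27.4% and 2.98% unthinned, at median depths of 5310.0 and 2522.5 UMIs). In VISTA KO macrophage-like cells Npl stood at 1.76 CPM, a log2 ratio of -5.41 (-6.10 to -4.88), and in cluster 7 at 2.11. Basophil-like cells went the other way, with 3 UMIs in 47 WT cells (13.02 CPM) and 24 UMIs in 90 VISTA KO cells (44.5 CPM). This class differed in makeup between the libraries: 6 mast cell markers summed to 1307 CPM in WT, none at 0, and to 1.85 CPM in VISTA KO, 5 of them at 0, and 8 basophil markers to 5353 and 2936 CPM. The part of this difference in the basophil-like values of Npl and Ctse was not tested.

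Ctse was found in each of the 14 ranked WT classes and stood highest in basophil-like cells, which were too few to be ranked. First among the ranked classes was an unnamed cluster led by Slc12a2 and Ace, followed by Fabp4, Treml4 and Cd300e. Its WT cells held 10240 CPM of monocyte and 5187 CPM of macrophage markers. The marker lists did not split monocytes into subtypes. The cluster led by Slc12a2 and Ace (61.9 CPM, 42.6 to 86.9), T cell-like cells (57.1), the low-count cluster led by Malat1 and Dleu2 (56.4), the Gpr84 and Slc7a2 cluster (49.1), monocyte-like (46.3), neutrophil-like (44.2) and NK cell-like cells (39.5), and also the Ly6i and Cxcl9 cluster (36.3), had intervals that overlapped that of the first. Macrophage-like cells (20.8 CPM, 17.5 to 24.6), mixed cDC2 and macrophage droplets (18.2), the Ccl7 and Ccl2 cluster (17.3) and mature DC-like cells (16.1) held the least, with intervals below that of monocyte-like cells (42.8 to 49.99). The range over the ranked classes was 3.84-fold. The 47 basophil-like cells held 273.5 CPM (210.2 to 349.9), and 35 of them had a Ctse UMI. After thinning the share was 52.2% of 46 cells, against 5.17% of monocyte-like and 4.2% of NK cell-like cells, at unthinned shares of 74.5%, 18.6% and 13.2%. The class of that name, with less basophil RNA and nearly no mast cell RNA, held 20.4 CPM in VISTA KO from 11 UMIs in 90 cells, a log2 ratio of -3.64 (-4.82 to -2.81). Basophil-like cells thus held more Ctse than monocyte-like cells in both libraries, 2.88 CPM being the monocyte-like level in VISTA KO.

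Rgs16 was a lymphoid gene in these cells. In WT it stood at 94.4 CPM (74.3 to 118.1) in T cell-like cells and 48.0 (39.9 to 57.2) in NK cell-like cells, intervals that do not overlap, and these classes held 201 of its 211 UMIs (95.3%). It was at 0 UMIs in 9 of the 14 ranked classes, among them 3027 monocyte-like cells, which allows up to 0.0991% of such cells with a UMI (3 counts). After thinning, 8.51% of T cell-like and 4.04% of NK cell-like cells held a UMI (16.3% and 11.0% unthinned, at median depths of 3722 and 2522.5 UMIs). In VISTA KO, NK cell-like cells held 17.8 CPM, a log2 ratio of -1.42 (-1.94 to -0.95). T cell-like cells held 74.7 CPM from 6 UMIs in 16 cells, a log2 ratio of -0.13 (-1.83 to 0.85), too few to show a difference of either sign. T cell-like and NK cell-like cells were 7.70% of WT and 4.02% of VISTA KO cells. With both libraries weighted to the same class shares the log2 ratio was -1.12, under 4-fold. The size of the Rgs16 difference over all cells thus moved with this weighting. The weighted value has no interval and rests in part on the 6 UMIs of the 16 VISTA KO T cell-like cells, so how far it moved is uncertain. Among the 8 genes only Rgs16 fell under 4-fold with this weighting, but Kcnj10, at 18 WT UMIs, came down to the threshold (4.02-fold against 5.42-fold).

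Ppfia4 was broadly found in VISTA KO cells. It stood at 50.7 CPM (47.1 to 54.6) in macrophage-like cells and 48.6 (41.8 to 56.2) in cDC2-like cells, and 5 classes had intervals that overlapped that of macrophage-like cells. Within macrophage-like cells, cluster 3 held 68.2 CPM (62.4 to 74.3) and cluster 7 held 30.9 (26.8 to 35.4), the reverse of the order for Npl in WT. Monocyte-like cells held 31.5 CPM, fibroblast-like cells 25.2, NK cell-like cells 17.8 and the cluster led by Ccl7 and Ccl2 16.9. The range was 3.00-fold, and each class overlapped the next in the order. After thinning, 5.72% of macrophage-like, 4.53% of cDC2-like and 0.873% of NK cell-like cells held a UMI (21.1%, 20.7% and 6.08% unthinned, at median depths of 4803.5, 4871.5 and 2997.5 UMIs). In WT, macrophage-like cells held 0.918 CPM and the Ly6i and Cxcl9 cluster 0 UMIs, against 232 in VISTA KO (at least 16.7-fold).

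Fcrla was high in the cluster called mixed cDC2 and macrophage, whose leading genes included Retnla, Lpl, Dcstamp, Mgl2, Clec4b1 and Ccl17. Of 9 cDC2 markers, 4 supported the name. In VISTA KO, Fcrla stood at 66.2 CPM (56.2 to 77.6) in this cluster. It stood at 60.2 (52.4 to 68.9) in the cluster led by the monocyte chemokine genes Ccl7 and Ccl2, with overlapping intervals. The clusters led by Ly6i and Cxcl9 (32.5) and by Gpr84 and Slc7a2 (28.9), mixed neutrophil droplets (29.3) and macrophage-like cells (23.6) followed. Monocyte-like cells (8.63) and cDC2-like cells (5.84, 3.66 to 8.84) held the least of the classes with Fcrla UMIs, beside mature DC-like cells (7.98). After thinning, 8.30% of the mixed cDC2 and macrophage droplets, 5.21% of the Ccl7 and Ccl2 cluster and 0.755% of cDC2-like cells held a UMI (34.7%, 16.6% and 2.92% unthinned, at median depths of 8165, 4162.5 and 4871.5 UMIs). Neutrophil-like cells held 0 UMIs in 76 cells, which allows up to 3.95% of such cells with a UMI (3 counts). At a Leiden resolution of 0.5 the leading class was the cluster led by Gpr84 and Cxcl9, at 31.3 CPM. The Ccl7 and Ccl2 cluster, near the top for Fcrla, was the lowest class for Ppfia4. In WT the mixed cDC2 and macrophage cluster held 1.44 CPM from 3 UMIs (log2 ratio 5.12, 3.95 to 7.82).

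Itln1 and Kcnj10 were rare in every class. Itln1 led in VISTA KO NK cell-like cells at 11.7 CPM (8.07 to 16.5; 20.3 at a Leiden resolution of 2), where 33 of 592 cells held 1 UMI each, followed by mixed neutrophil and macrophage droplets at 5.09 (3.74 to 6.76). Macrophage-like and monocyte-like cells held 1.69 and 1.66 CPM, and 4 ranked classes were at 0. The intervals of 2 other ranked classes overlapped that of NK cell-like cells. Neutrophil-like cells, at 0 UMIs in 76 cells, were too shallow to show this level, with a floor of 28.4 CPM for 3 UMIs. After thinning, 2.27% of NK cell-like and 0.198% of macrophage-like cells held a UMI (5.57% and 0.897% unthinned). Kcnj10 showed no leading class: 2.76 CPM (1.64 to 4.36) in the Ly6i and Cxcl9 cluster, 2.67 (1.89 to 3.67) in macrophage-like cells, and overlap with 12 of the other 14 ranked classes. In the Ly6i and Cxcl9 cluster a difference in Kcnj10 between libraries was not detectable at this depth, at 2.84 CPM in WT from 4 UMIs (log2 ratio -0.29, -1.65 to 1.98).

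**Figure D3:**
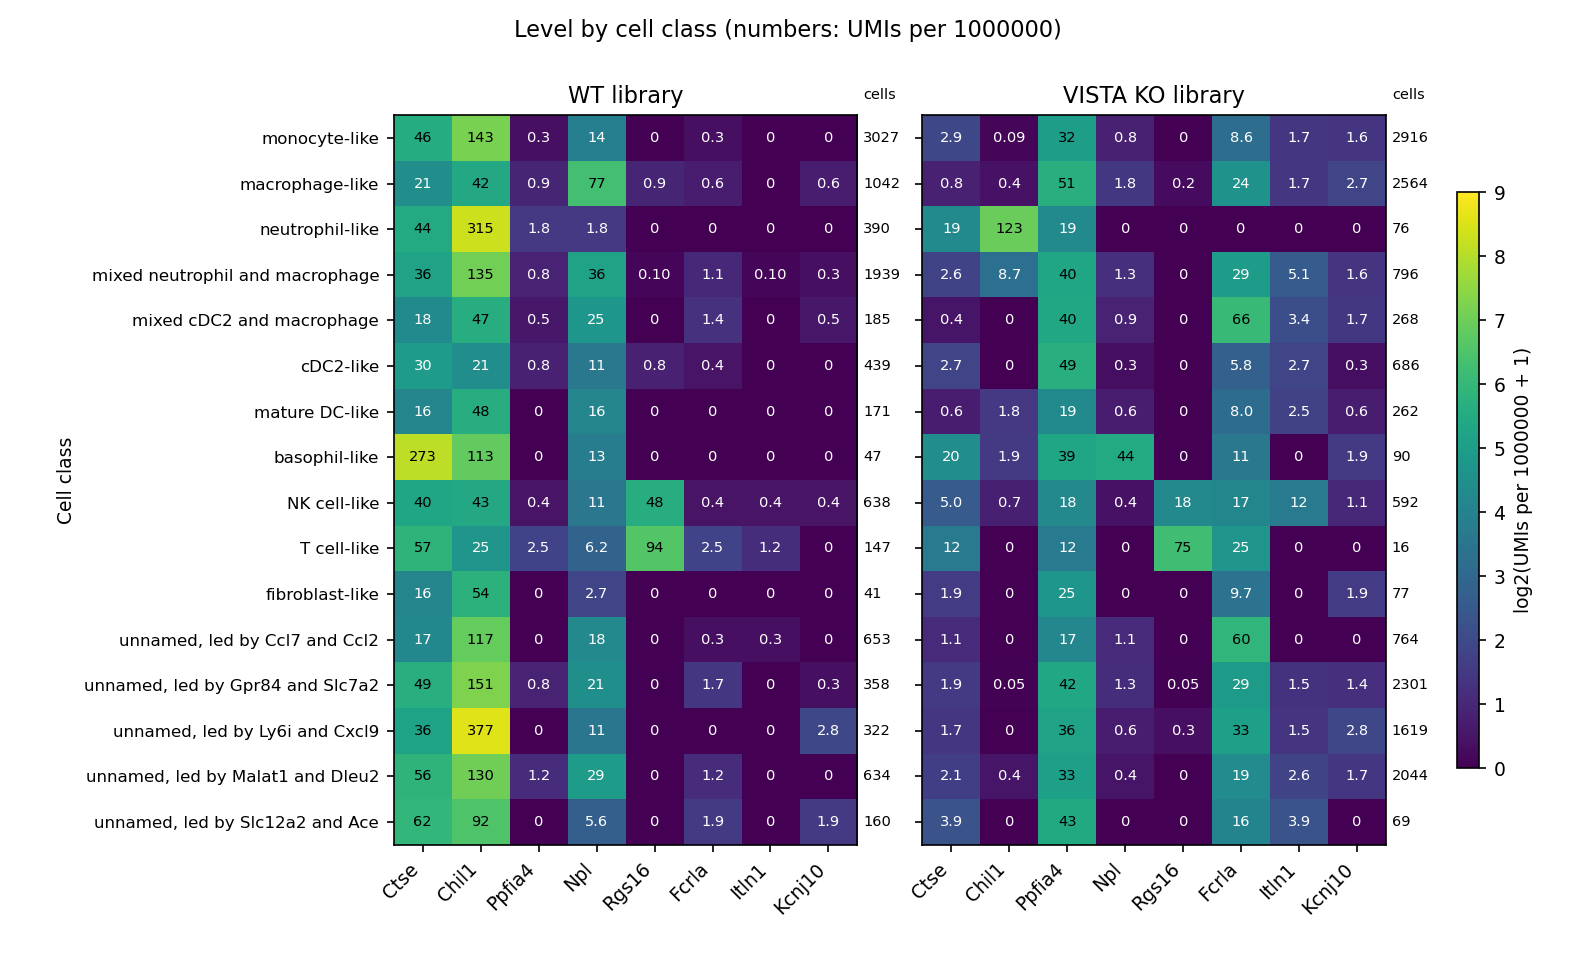
Level of each gene (columns) in each cell class (rows) in the WT and the VISTA KO library; color is log2(CPM + 1), cell numbers are printed beside the rows and CPM in the tiles. Chil1 peaks at 377 CPM in the WT cluster led by Ly6i and Cxcl9, Npl at 77.4 in WT macrophage-like cells, and Rgs16 is confined to the T cell-like and NK cell-like rows apart from levels under 1 CPM.

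Ratios within classes were set beside those over all cells, since the libraries held different shares of each class. Of 60 gene and class pairs with at least 20 UMIs in the 11 classes with 100 or more cells in both libraries, 59 had the direction seen over all cells, and 56 were over 4-fold in it. Of genes with at least 100 UMIs in the class, 0.364% were over 4-fold apart in monocyte-like, 0.258% in macrophage-like, 0.233% in NK cell-like, 0.188% in cDC2-like and 0.247% in mature DC-like cells. The share was 0.243% in mixed neutrophil and 0.499% in mixed cDC2 droplets, and in the clusters led by Ccl7, Gpr84, Ly6i and Malat1 it was 0.198%, 0.277%, 0.331% and 0.458%. The classes are parts of the contrast that chose the genes, so nothing is read from this. With a count of 0 read as 3 UMIs, 54 pairs were over 4-fold. Chil1 and Ppfia4 were over 4-fold apart in all 11 classes, Ctse and Fcrla in 10 of 10, Npl in 9 of 9 and Itln1 in 4 of 4, of which macrophage-like cells (at least 3.68-fold) and the Gpr84 and Slc7a2 cluster (at least 1.76-fold) had 0 WT UMIs. Kcnj10 was over 4-fold apart in 1 of 4, the mixed neutrophil and macrophage droplets. For Ctse the log2 ratios ran from -2.91 in NK cell-like cells to -4.69 in the Gpr84 and Slc7a2 cluster, and for Ppfia4 from 3.77 in the low-count Malat1 and Dleu2 cluster to 6.48 in monocyte-like cells. The cluster with the most monocyte-like cells was cluster 4 in WT (1217) and cluster 9 in VISTA KO (843), and the one with the most macrophage-like cells was cluster 7 (638) and cluster 3 (1592).

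**Figure D4:**
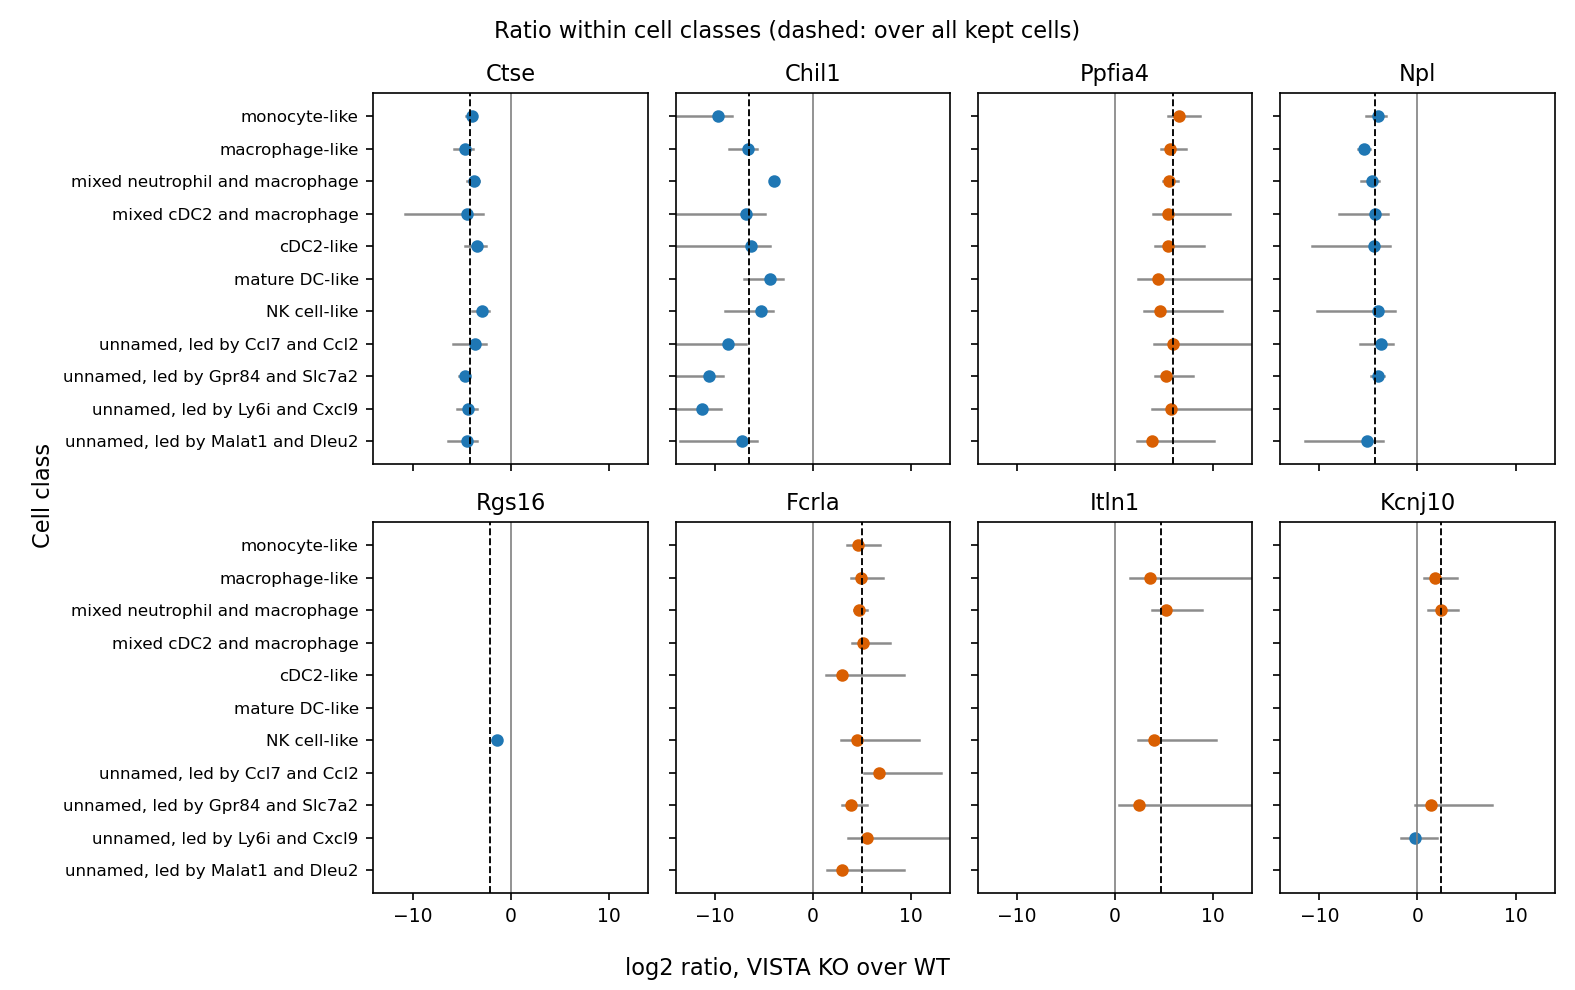
Log2 ratio of VISTA KO over WT (x axis) for each gene within each cell class (y axis) with at least 20 UMIs, with 95% intervals running off the axis where 1 library had few or no UMIs; the dashed line is the ratio over all kept cells. Chil1 lies furthest from 0 in the Ly6i and Cxcl9 and Gpr84 and Slc7a2 clusters, and Rgs16 has a value only in NK cell-like cells (-1.42).

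Surface tags gave a readout that did not enter the choice of genes. In the WT Ly6i and Cxcl9 cluster, the 204 cells with Chil1 RNA had a median of 1529.5 Ly6C tag UMIs and the 118 without had 1141, at similar depths (4131 and 4026.5 UMIs). WT macrophage-like cells with Npl RNA had less Ly6C tag than those without, 589 against 909, at depths of 7350 and 4637 UMIs, and the same CD11c tag median of 19. Clusters 3 and 7, which differ in Npl, were not separated here. In the mixed cDC2 and macrophage droplets, those with Fcrla RNA had 124 CD11c tag UMIs and those without had 98, at depths of 8706 and 7451. Macrophage-like VISTA KO cells with Ppfia4 RNA had 1002.5 Ly6C and 23 CD11c tag UMIs, and those without 812.5 and 18, at depths of 5838.5 and 4585.5. Clusters 3 and 7, which also differ in Ppfia4, were not separated there either. NK cell-like cells with and without Itln1 RNA had 203 and 212 Ly6C tag UMIs. The part of depth in these differences was not tested.

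The genes whose level followed each gene most closely over clusters were described by Pearson's r on log2(CPM + 1), over 18 clusters in WT or 19 in VISTA KO; the points share a library and differ in depth. Rgs16 ran with T cell genes, Gata3 (0.98), Zap70 (0.98), Gpr174 and Trbc1. Chil1 was closest to complement C3 (0.95), Tarm1 (0.91), Dgat2, Igsf6 and Cers6, and Npl to Scoc (0.91), Cela1 (0.91), the lysosomal gene Aga, Kif3a and Prune2. Fcrla was closest to Pgp (0.93), Agpat5, Crat, B3gnt7 and Etv5. Ctse was nearest to Ythdc1 (0.86), Adipor2, Nab1, Zscan29 and Itgal. For Ppfia4 the highest value was 0.68 (Slc35c2), followed by Wdfy4, Plbd1, Zfp710 and Asah1. Itln1 and Kcnj10, at few UMIs, had Mtf2 (0.84), Efcab7, Arl4d, Llgl2 and Cbx7, and Trim23 (0.81), Ttll1, Slc35b2, Zfp160 and Slc25a15.

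Other genes of the same families are given as a description, since the 8 genes were chosen for the size of their difference and their relatives were not. Genes with at least 20 UMIs were counted where they were at least 25% higher or 20% lower in VISTA KO with an interval that left out 1. Of all 13656 such genes, 14.6% were higher and 7.73% lower, around a median log2 ratio of 0.08. Of 69 family genes other than the 8, 12 were higher and 10 lower, or 11 higher and 14 lower when the libraries were scaled to the median gene ratio. Among 5 measured chitinase-family genes, 1 was higher (Ctbs, 0.33) and 2 lower (Chil1 and Chil3, the latter -0.43), with Chid1 at -0.07 and a list median of -0.07. Among 15 cathepsins, 3 were higher and 3 lower, at a median of 0.12: the collagen-cutting protease gene Ctsk had 1.70, Ctso 0.53 and the neutrophil granule gene Ctsg -2.04. Of 15 genes of sialic acid handling, Siae was higher (0.42) and Npl lower, at a median of 0.16, with Gne, the first enzyme of sialic acid synthesis, at 0.31 and Nans at -0.32. Thus no other measured chitinase or sialic acid gene was past 1.5-fold.

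Of 10 RGS genes, Rgs12 was higher (0.56) and Rgs16 lower, at a median of 0.10, with Rgs1 at 0.28 and Rgs3 at -0.23. Among 6 liprins and LAR-type receptor genes, 3 were higher and 0 lower at a median of 0.35: Ppfia4, Ppfibp1 (0.45) and Ptprs (0.42), beside Ppfia1 at 0.04. Of 13 Fc receptor genes 4 were higher and 2 lower, at a median of 0.19. They included Fcrla and Fcgr2b (0.92) on the higher side and the macrophage gene Fcrls (-0.90) on the lower, with Fcer1g at -0.27, short of that size. Among 10 genes of intelectins and the SLAM family of immune cell receptors, whose genes lie near Itln1, 2 were higher and 4 lower. The list median was -0.14, with Slamf6 at 0.57, Cd244a at -0.74 and Slamf7 at -1.03. Only 3 inward rectifier genes were measured (median 0.23), Kcnj10 being higher and Kcnj2 lower (-0.71). Of the 13 Ifi200 genes at 35.2 to 35.8 Mb from the Ptprc start, 2 were higher and 6 lower, at a median of -0.26.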

How the data were processed

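The members, the marker lists and the family lists were chosen with earlier results of these data known. The 2 gene expression libraries, each with its antibody tags, were read from deposited matrices of raw counts, UMIs per barcode of 32285 genes and 3 tags, written by Cell Ranger 5.0.0 per the file headers and aligned to mm10 per the submitters' processing notes, which also name Seurat 4.0. Barcodes with at least 200 genes, 500 UMIs and at most 10% mitochondrial UMIs were kept (99.5% of WT, 99.2% of VISTA KO). Counts per cell were scaled to 10000. Both libraries were clustered together without integration (scanpy 1.11.5, leidenalg 0.10.2, Leiden resolution 1, seed 7, 30 components, 15 neighbours). In all, 2000 variable genes were used, chosen from rankings within each library. Vsir, cell cycle, mitochondrial, ribosomal, sex-linked marker and chromosome 1 genes within 40 Mb of Ptprc were left out of the clustering. Clusters were named from 18 marker lists (at least 3 markers 1.5-fold above other cells and in 20% of cells), called mixed where 3 macrophage markers were each in at least 60% of cells, and otherwise left unnamed. Clusters with low counts and no marker of their type among 10 leading genes were also left unnamed. These thresholds were set after clusters had been seen. No doublets were removed. UMIs were summed per class and library and given per 1000000. Ratios are log2 of VISTA KO over WT, 1 UMI being added to each sum except where classes or cells were weighted. Intervals are exact at 95%: Poisson for levels, conditional binomial for ratios and Clopper-Pearson for shares, while the limit allowed by a count of 0 is 3 counts of the total. UMI counts give no replicate error. The rule named all 8 genes, their nearest measured neighbours, genes around the 4-fold threshold, the 2 highest and 2 lowest of each family list and 5 genes closest in pattern. Some neighbours and genes close in pattern are not reported here. The ratio calculation was checked on simulated counts with known folds. Of 32285 genes, 26696 had a RefSeq GRCm38.p6 position, and 6 listed symbols were not analysed here.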

Additional observations from a re-analysis of the deposited data

Results flagged for a closer look

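Npl in basophil-like cells moved against the other classes. Its log2 ratio of VISTA KO over WT was 1.42 there (0.05 to 4.15), from 3 UMIs in 47 WT cells and 24 UMIs in 90 VISTA KO cells, while Npl was lower in VISTA KO in each of the 9 classes with at least 20 UMIs, from -3.66 to -5.41. These 24 UMIs were 21.6% of all 111 Npl UMIs of the VISTA KO library. The class differed in makeup between the libraries: 6 mast cell markers summed to 1307 CPM in WT and 1.85 CPM in VISTA KO, where 5 were at 0, and 8 basophil markers to 5353 and 2936 CPM, and their part in the ratio was not tested. The difference between classes was not tested, since each group held 1 library.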

How the results depend on the processing

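No paired analysis was possible because neither group had more than 1 library. The log2 ratios of the 8 genes over all kept cells kept their direction under 7 alternatives of filter, scaling, pseudocount, weighting and shared barcodes. With both libraries weighted to the same class shares, Chil1 stood at -5.06 (33.4-fold against 88.2-fold), Ctse at -3.85, Rgs16 at -1.12, Kcnj10 at 2.01 and Itln1 at 5.52 (46.0-fold against 24.9-fold). With each cell weighted equally, Npl stood at -3.89. Neither weighting added a UMI, unlike the ratios over all kept cells, which matters for Itln1 with 5 WT UMIs. With 0.5 UMI added, its unweighted log2 ratio was 4.76, so its move is not due to the class shares alone. A window of 20 Mb held 6 genes over 4-fold apart of 140, and a minimum of 20 UMIs gave 16 of 324. Scaling to the median gene ratio shifted all ratios by 0.08. Npl led in macrophage-like, Rgs16 in T cell-like and Itln1 in NK cell-like cells under all 5 alternatives for the classes. Chil1 led in neutrophil-like cells with the chromosome 1 genes kept (322.0 CPM) or each library clustered alone (302.7), and Fcrla in a cluster led by Cxcl9 and Gpr84 (45.03) with those genes kept. At a Leiden resolution of 0.5 both led in a cluster led by Gpr84 and Cxcl9 (205.3 and 31.3 CPM), and without mixed and unnamed clusters Fcrla led in macrophage-like cells (23.6) and Chil1 in neutrophil-like cells (314.7). Ctse led in T cell-like cells under 4 of the 5, and the class of Ppfia4 and Kcnj10 varied. Depth limits Itln1, Kcnj10 and all values from T cell-like VISTA KO and basophil-like cells.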
